A study of Mus musculus with 10 samples.

Results

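The genes described here belong to the response of mouse cells to interferon and to antigen presentation by major histocompatibility complex (MHC) class I molecules. They were chosen by name, as a list of 42 genes with known roles in the response, and the rule uses the names alone. Of the 42, 40 had at least 1 probe that could be matched to the gene, out of 18539 named genes on the arrays. Mx1 and Mx2, which block the replication of some viruses, had no probe that the name table could match.

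The study asked how a diet rich in fish oil changes gene expression in the mouse brain. RNA from the left hemibrain of individual male C57BL/6J mice, 3 weeks old at the start, 20 weeks on a diet and aged 5 months, was labelled with Cy-5 and hybridised to 10 dual-dye Agilent arrays. Each array also carried another RNA, labelled with Cy-3, which is called the reference here. The labels give the fish oil diet (FD) for the Cy-5 RNA of all 10 arrays and pooled hemibrain RNA of mice on the standard diet (SD) for Cy-3, whereas the description of each array calls it a control. The methods of the study instead describe FD and SD arrays that share a commercial reference RNA in Cy-3. They also give fewer mice on arrays than the 10 deposited here, and which of the 10 the study used was not settled. Diet was therefore not settled for any array, no FD and SD groups were formed, and the 10 arrays are treated as 1 group, named by their animals (C10-413 to C10-437).

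Each value below is a log2 ratio of the Cy-5 signal of a hemibrain to the Cy-3 signal of the reference on the same array, so a value under 0 means less signal from the hemibrain. It states a difference between the hemibrain RNA and the reference RNA, and not an effect of diet. A gene was called higher or lower when the mean over the 10 arrays differed from 0 in limma at a Benjamini-Hochberg adjusted p under 0.05 and by at least 1.5-fold. No array had its dyes exchanged, so a preference of a probe for 1 dye and a difference in RNA cannot be told apart. The p-values hold the spread between arrays and leave out any spread of the reference RNA itself. The number of arrays limits the precision. In whole hemibrain RNA, fewer cells of a type and less RNA per cell cannot be told apart.

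Interferons are secreted proteins that bind receptors on the cell surface and, through Janus kinases and the transcription factors these activate, switch on genes whose products detect viral RNA, degrade it, stop its translation or mark proteins with the ubiquitin-like protein ISG15. Many of these genes carry a DNA element called the interferon-stimulated response element (ISRE), which factors of the IRF family bind. MHC class I molecules consist of a heavy chain such as H2-K1 or H2-D1 with beta-2-microglobulin, and they show peptides that the TAP transporter has carried into the endoplasmic reticulum; in the resting brain, microglia and endothelial cells are known to carry more of them than most neurons.

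Promoter sequences from RefSeq (GRCm38.p6) were found for 35 of the 42 genes and are shown for a few members, because the genes are known for a shared mode of induction and most stood on the same side of the reference. A pattern from the core of the ISRE was searched as GAAANNGAA, or TTCNNTTTC on the other strand, in windows of 250 bases before and 50 bases after the start of each gene. The 35 genes have 43 promoters in the table, since some have several starts. The pattern was present in 20 of these 43 promoters (46.5%), of 20 genes, and in 8.56% of all 32851 promoters. A match describes letters in the window and is neither a binding site nor a cause. The stretches are the 180 bases before the start, written 5′ to 3′ on the strand of the gene, with ISRE patterns in capitals. They lie at chr19:34640709-34640888 (plus strand) for Ifit1, chr19:34583349-34583528 (plus) for Ifit3, chr4:156200819-156200998 (minus) for Isg15 and chr2:122147507-122147686 (plus) for B2m. Ifit1, Ifit3 and Isg15 held 3 matches each in the stretch, and B2m held 1.
Ifit1: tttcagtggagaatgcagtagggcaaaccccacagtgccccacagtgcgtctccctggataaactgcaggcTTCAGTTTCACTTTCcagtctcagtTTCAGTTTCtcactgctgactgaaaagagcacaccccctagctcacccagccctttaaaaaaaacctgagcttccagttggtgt
Ifit3: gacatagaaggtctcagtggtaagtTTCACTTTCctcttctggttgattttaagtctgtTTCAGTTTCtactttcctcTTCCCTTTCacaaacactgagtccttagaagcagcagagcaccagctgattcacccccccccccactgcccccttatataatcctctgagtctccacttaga
Isg15: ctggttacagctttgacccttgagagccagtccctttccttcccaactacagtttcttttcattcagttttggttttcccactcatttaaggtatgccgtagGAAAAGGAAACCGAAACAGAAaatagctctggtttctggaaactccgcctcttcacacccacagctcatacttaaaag
B2m: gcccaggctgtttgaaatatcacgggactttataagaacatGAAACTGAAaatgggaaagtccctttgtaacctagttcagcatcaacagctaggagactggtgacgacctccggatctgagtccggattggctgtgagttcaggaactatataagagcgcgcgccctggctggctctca

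The class I heavy chain genes H2-K1 and H2-D1 had no match to GAAANNGAA or TTCNNTTTC in their windows. That does not mean that they lack an ISRE, since only these letters were searched for it. Their stretches are shown for a pair of other patterns. The pattern GGGATTCCC (GGGAATCCC on the other strand), known from textbooks for NF-kappa B proteins at class I promoters, was present in 116 of the 32851 promoters, or 0.353%. Of the 43 member promoters 4 held it (9.3%), and they belong to H2-K1, H2-D1 and Irf1. The shifted pattern GAANNGAAA (TTTCNNTTC on the other strand) was in 15 of the 43 member promoters (34.9%), of 14 genes, and in 7.52% of all promoters, and it overlapped an ISRE pattern in 156 promoters of the whole table. Capitals mark both patterns in the 180 bases before the start, at chr17:34000348-34000527 (minus strand) for the first listed of the promoters of H2-K1 and at chr17:35262914-35263093 (plus strand) for H2-D1.
H2-K1: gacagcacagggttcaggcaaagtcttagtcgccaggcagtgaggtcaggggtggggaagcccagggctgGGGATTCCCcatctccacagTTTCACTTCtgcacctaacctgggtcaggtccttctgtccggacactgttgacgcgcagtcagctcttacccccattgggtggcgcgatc
H2-D1: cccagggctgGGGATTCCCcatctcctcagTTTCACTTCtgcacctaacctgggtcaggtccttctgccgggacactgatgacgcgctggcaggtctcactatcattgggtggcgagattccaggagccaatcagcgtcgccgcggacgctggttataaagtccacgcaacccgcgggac

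Markers of brain cells were set against the label of the tissue. All 8 neuron markers were called higher in the hemibrain than in the reference, with a median log2 ratio of 7.10, where 34.5% of all named genes were called higher. All 6 astrocyte markers (median 5.66) and all 5 oligodendrocyte markers (median 5.43) were also called higher. Of 9 microglia markers 7 were called higher (median 1.43), as were 5 of 6 endothelial markers (median 3.58) and 4 of 5 choroid plexus markers (median 5.05). The Cy-5 RNA therefore carried the markers of its label. The same ratios went against the label of the Cy-3 RNA as pooled hemibrain: the neuron markers were higher in Cy-5 by 20.2-fold to 393-fold, each of the 8 above 0 on every array with a value, where brain RNA in both dyes would give ratios near 0. Genes of dividing cells ran the other way, with 6 of 6 called lower (median −6.22), as did 4 of 5 fibroblast markers (median −4.33). Many of these medians rest partly on signals near background in the dye where the marker is low. Of the markers, 5 of 8 for neurons, 4 of 6 for astrocytes, 4 of 5 for oligodendrocytes, 6 of 9 for microglia, 3 of 6 for endothelium, 1 of 5 for choroid plexus, 3 of 6 for dividing cells and 5 of 5 for fibroblasts were well above background in both dyes on all arrays. With Mog, at background in Cy-3 on all arrays, set to its bound of at least 29.4-fold, the oligodendrocyte median was 4.88. Aurkb, a marker of dividing cells, never rose above background in Cy-5 and was at least 80.7-fold lower, and P2ry12 of microglia was at background in Cy-3 and at least 29.6-fold higher. These bounds left the medians of both lists at −6.22 and 1.43. Markers of T cells (1 of 5 lower, median 0.06), of B cells (2 of 4 lower, median −2.70) and of monocytes, macrophages and neutrophils (2 higher and 3 lower of 6, median −0.25) gave smaller or mixed counts, with 1 of 5, 0 of 4 and 1 of 6 of them well above background in both dyes on all arrays. Both red blood cell markers with a probe were called higher (median 4.29).

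The interferon and class I genes lay on the reference side. Of the 40 members with a probe, 34 were called lower in the hemibrain, 2 were called higher and 4 were not called. Over all named genes the same calls took 27.4%, 34.5% and 38.1%. The median log2 ratio over members was −2.16, from −6.08 to 2.04, beside a median of 0.13 over all named genes. With a background correction by normexp, which includes an offset, all 40 members moved nearer to 0 and 18 of them moved by over 1.5-fold. The median over members was then −1.39, beside 0.03 over all named genes, and 31 members were called lower. The 27.4% above belongs to the main processing, and no share of named genes called with normexp is given beside that count. On the sign alone, 34 members were below 0 on every array, where 29.6% of named genes were, and 2 members were above 0 on every array, where 36.5% were. A probe was counted as well above background where at least 0.5 of its spots carried that mark. In Cy-3 all 40 members were well above background on each of the 10 arrays, where 74.2% to 87.7% of named genes were, depending on the array. In both dyes on all arrays, 28 of the 40 members were well above background. Among those 28, 22 were called lower and 2 higher with a median of −1.76, beside 28.2%, 37.8% and a median of 0.19 over the 11372 genes that passed the same filter. Of the 28, 7 moved by over 1.5-fold with normexp, and of the 12 others 11 did, where the offset moves weak signals most by construction.

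**Figure D1:**
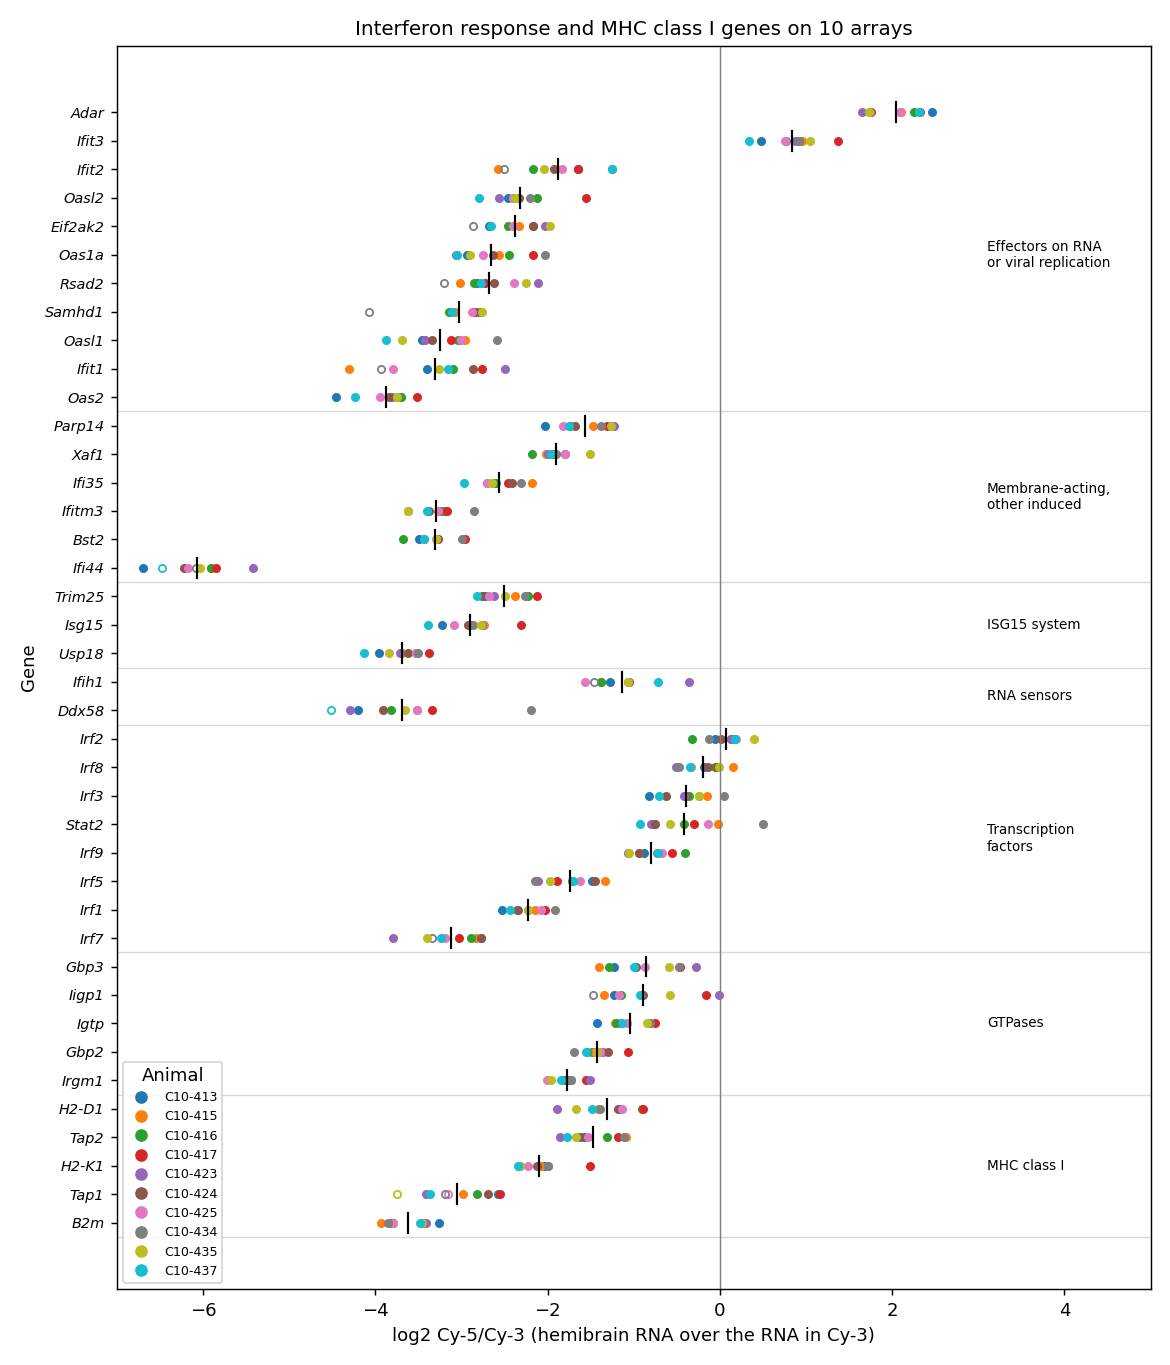
Log2 ratio of hemibrain (Cy-5) to reference (Cy-3) signal (horizontal axis) for each of the 40 members (rows, grouped by role), with 1 point per array and n = 10; a vertical bar is the mean and an open circle marks an array on which the probe was not well above background in Cy-5. Most members lie left of 0, while Adar (mean 2.04) and Ifit3 (mean 0.84) lie right of it on all arrays.

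C10-434 was the dimmest array in Cy-5. On it 49.8% of all probes were well above background in that dye, against 68.2% to 76.9% on the other arrays. Only 29 of the 40 members were well above background in Cy-5 on C10-434, and 38 to 40 were on each other array. Of all named genes, 66.0% were so on C10-434 and 80.6% to 86.3% on the other arrays. Values of C10-434 for weak members therefore sit near background, and the counts of called members without this array were again 34 lower and 2 higher.

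Effectors that act on RNA or on viral replication made up the largest role, with 11 of 13 genes measured. Of these 9 were called lower and 2 higher, with a median of −2.66. The oligoadenylate synthetase family, whose active enzymes make a messenger that activates RNase L, was among the 9. Oasl1, a family member known as a translational regulator of Irf7, ran from −3.88 through a median of −3.23 to −2.58 over the arrays. It was lowest on C10-437 and highest on C10-434, with every array far below 0. Its mean was 9.53-fold below the reference (log2 −3.25 ± 0.12 SE, n = 10, limma adjusted p = 4.71e-11, below 0 on 10 of 10 arrays). Oasl2, an interferon-induced relative, ran from −2.80 through −2.39 to −1.56, again lowest on C10-437 but highest on C10-417. On average it was 5.00-fold below the reference (−2.32 ± 0.10, adjusted p = 3.39e-10, 10 of 10 arrays). Oas1a and Oas2 were lower by 6.30-fold and 14.6-fold. With normexp the means were −2.47 for Oasl1, −1.63 for Oasl2, −1.82 for Oas1a and −2.01 for Oas2, and the median of the effectors was −1.63, or −2.07 with a floor on signals.

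Adar and Ifit3 were the members called higher. Adar encodes an enzyme that converts adenosine to inosine in double-stranded RNA and is active in the brain without interferon. Its brightest probe, A_52_P183181, gave a lowest array of 1.66, a median of 2.10 and a highest array of 2.46. The values were lowest on C10-423 and highest on C10-413, with all arrays above 0. The mean was 4.13-fold above the reference (log2 2.04 ± 0.09 SE, n = 10, limma adjusted p = 5.88e-10, 10 of 10 arrays). The other Adar probe, A_51_P257134, had the opposite sign on all arrays, from −1.32 to −0.04 with a mean of −0.75 (adjusted p = 8.46e-05), and it was well above background in both dyes on every array. The direction given for Adar therefore holds for 1 of its 2 probes, the log2 ratio of Adar averaged over both was 0.65, and what each probe detects was not tested. Ifit3, a partner of Ifit1 in binding viral RNA, ran from 0.34 through 0.89 to 1.37. It was lowest on C10-437 and highest on C10-417, and it had only 1 probe. Its mean was 1.79-fold above the reference (0.84 ± 0.09, adjusted p = 3.12e-06, 10 of 10 arrays), with a median processed Cy-5 signal of 3772 intensity units beside 2475 in Cy-3.

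Ifit1 and Ifit2, relatives of Ifit3, were on the other side of 0, while Ifit3b, its closest relative and outside the 42 genes, was on the same side. Ifit3b was named after its values were seen, and ran from 0.07 through 0.37 to 0.96 (mean 0.45, limma adjusted p = 0.00114, above 0 on 10 of 10 arrays), short of the 1.5-fold minimum. Ifit1, which binds RNA with foreign cap structures, was 9.90-fold below the reference, and Ifit2 was 3.69-fold below it. Both were lowest on C10-415 and highest on C10-423. Whether the probes of Ifit3 and Ifit3b pick up transcripts of each other was not tested, since probe sequences were not available. Rsad2, whose product makes a chain-terminating nucleotide, was lower by 6.40-fold, and Eif2ak2, the kinase PKR that stops translation, by 5.18-fold. The Rsad2 fold is that of its brightest probe (mean −2.68), and its other probes gave −1.70 and −1.52. Samhd1, which breaks down the nucleotides needed for reverse transcription, was lower by 8.17-fold. All 5 were called lower. With normexp the means were −1.65 for Ifit1, −1.07 for Ifit2, −1.45 for Rsad2, −1.34 for Eif2ak2 and −1.86 for Samhd1.

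All 6 membrane-acting or other induced genes were called lower, with a median of −2.93. Bst2, called tetherin because it holds budding virus particles at the cell surface, ran from −3.67 through −3.30 to −2.96. C10-416 was lowest and C10-417 highest, and the arrays stayed within a narrow band. The mean was 9.94-fold below the reference (log2 −3.31 ± 0.08 SE, n = 10, limma adjusted p = 9.71e-13, 10 of 10 arrays). Ifitm3, which blocks the fusion of viruses with endosomes, ran from −3.62 through −3.26 to −2.86, lowest on C10-435 and highest on C10-434. It was 9.81-fold below the reference (−3.29 ± 0.08, adjusted p = 1.34e-12, 10 of 10 arrays). The median processed Cy-5 signal was 3174 intensity units for Bst2, beside 33644 in Cy-3. For Ifitm3 it was 7710, beside 80388 in Cy-3. Ifi35, Xaf1 and Parp14 had means of −2.56, −1.90 and −1.57. With normexp Ifi35 was at −1.86 and Xaf1 at −1.28.

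Ifi44, singled out after its values were seen, had the lowest mean of all members. Its arrays ran from −6.69 through −6.06 to −5.42, lowest on C10-413 and highest on C10-423. The ratio was 67.5-fold below the reference (log2 −6.08 ± 0.11 SE, n = 10, limma adjusted p = 1.64e-13, below 0 on 10 of 10 arrays). Its Cy-5 signal was well above background on 8 of the 10 arrays, so the fold rests partly on signals near background, and with normexp the mean was −3.40.

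The ISG15 system was called lower in all 3 genes, with a median of −2.90, or −2.17 with normexp. Isg15 encodes the ubiquitin-like protein itself and ran from −3.39 through −2.89 to −2.31. Usp18, the protease that removes ISG15 from proteins and also dampens receptor signalling, ran from −4.13 through −3.65 to −3.38. Trim25, a ubiquitin ligase that acts on the RNA sensor RIG-I, ran from −2.82 through −2.56 to −2.12. Each of the 3 was lowest on C10-437 and highest on C10-417. Isg15 was 7.46-fold below the reference (log2 −2.90 ± 0.09 SE, n = 10, limma adjusted p = 1.88e-11, 10 of 10 arrays). Usp18 was 12.9-fold below it (−3.69 ± 0.08, adjusted p = 5.84e-13, 10 of 10 arrays), the lowest mean among the 28 members well above background in both dyes on all arrays. With normexp the means were −2.14 for Isg15 and −2.76 for Usp18. The other probe of Trim25 had a mean of −1.10.

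Both RNA sensors were called lower. Ddx58 encodes RIG-I, which recognises viral RNA ends, and was named after its values were seen, since its arrays ran from −4.51 on C10-437 to −2.19 on C10-434, a wider range than for any other member. On C10-437 its Cy-5 signal was not well above background, so the low end of the range rests on a signal near background. Its mean was 13.0-fold below the reference (log2 −3.70 ± 0.19 SE, n = 10, limma adjusted p = 1.28e-09, 10 of 10 arrays). Ifih1, the sensor MDA5 of long double-stranded RNA, had a mean of −1.13 and ran from −1.56 on C10-425 to −0.36 on C10-423. With normexp the mean of Ddx58 was −1.76 and that of Ifih1 was −0.54, the latter short of the minimum fold, and the median of both went from −2.41 to −1.15, or to −1.70 with a floor.

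Transcription factors stood closest to the reference. Of 8 factors 4 were called lower and 4 were not called, with a median of −0.61. Irf7, a main driver of interferon genes, was 8.74-fold below the reference with arrays from −3.79 to −2.77, and with normexp its mean was −1.64. Irf1 (−2.23), Irf5 (−1.74) and Irf9 (−0.80) were the others called lower. For Irf9 the other probe had a mean of −0.50 (limma adjusted p = 0.0739), with arrays from −2.21 to 0.47, and did not pass. That probe was well above background on 6 arrays in Cy-5 and on 9 in Cy-3. Irf2, which competes with Irf1 for the same DNA elements, ran from −0.33 through 0.13 to 0.39. It was lowest on C10-416 and highest on C10-435, and its arrays fell on both sides of 0. Its mean of 0.07 ± 0.07 SE (n = 10, limma adjusted p = 0.411) was not called, and its sign turned to −0.17 with the deposited log ratio, to −0.16 with median centring and to −0.17 with the deposited table. Irf8, a factor of microglia and other myeloid cells, ran from −0.50 through −0.16 to 0.15 with a mean of −0.19 (adjusted p = 0.0378), under the 1.5-fold minimum. It was lowest on C10-423 and highest on C10-415.

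Irf3, which is present before infection and is activated by the sensors, ran from −0.82 on C10-413 through −0.38 to 0.05 on C10-434. The mean of −0.39 ± 0.09 SE (n = 10, limma adjusted p = 0.00131) was also under the minimum. Stat2, which works with Irf9 downstream of the type I interferon receptor, had the widest range among the 28 bright members, from −0.93 through −0.50 to 0.50. C10-437 was lowest and C10-434 highest, and the arrays straddled 0. Its mean was −0.42 ± 0.13 SE (n = 10, adjusted p = 0.0112), 1.34-fold below the reference and not called. The mean passed the threshold with the deposited log ratio (−0.64), with median centring (−0.63) and with the deposited table (−0.64).

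The interferon-inducible GTPases, which attack the vacuoles of intracellular microbes, were called lower in 5 of 5 genes but by less, with a median of −1.04. Gbp3 ran from −1.41 through −0.93 to −0.27. It was lowest on C10-415 and highest on C10-423, and below 0 throughout. On average it was 1.81-fold below the reference (log2 −0.86 ± 0.12 SE, n = 10, limma adjusted p = 2.45e-05, 10 of 10 arrays), and with normexp the mean was −0.55, short of the minimum fold. Irgm1 (−1.77), Gbp2 (−1.43) and Igtp (−1.04) had narrower ranges. Iigp1 was named after its values were seen, as its mean of −0.90 lost the call with normexp (−0.39) and within slide 1 (−0.67). It ran from −1.48 on C10-434 to −0.01 on C10-423.

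All 5 MHC class I and peptide transport genes were called lower, with a median of −2.10, or −1.18 with normexp. B2m, the light chain common to class I molecules, ran from −3.94 through −3.64 to −3.26, with C10-415 lowest and C10-413 highest. It was 12.4-fold below the reference (log2 −3.63 ± 0.08 SE, n = 10, limma adjusted p = 7.41e-13, 10 of 10 arrays). The median processed signal of B2m was 10791 intensity units in Cy-5 and 142126 in Cy-3, so the light chain was plainly detected in the hemibrain while standing well below the reference. The other B2m probe gave −4.21.

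H2-K1 and H2-D1 encode the heavy chains, which hold the peptide. H2-K1 ran from −2.34 through −2.10 to −1.51, lowest on C10-437 and highest on C10-417, and the array C10-417 stood apart from the other 9. Its mean was 4.27-fold below the reference (log2 −2.10 ± 0.08 SE, n = 10, limma adjusted p = 1.26e-10, 10 of 10 arrays). H2-D1 ran from −1.89 through −1.29 to −0.89, lowest on C10-423 and highest on C10-417. It was 2.48-fold below the reference (−1.31 ± 0.10, adjusted p = 9.11e-08, 10 of 10 arrays). The other probes of H2-K1 gave −1.37 and −1.35, and the other probe of H2-D1 gave −2.31, so the order of these genes differed between probes while all were below 0. Class I heavy chains are alike in sequence, and signal from related genes on these probes was not tested.

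The peptide transporter has a pair of subunits. Tap1 ran from −3.74 through −3.07 to −2.56, lowest on C10-435 and highest on C10-417. It was 8.29-fold below the reference (log2 −3.05 ± 0.12 SE, n = 10, limma adjusted p = 1.06e-10, 10 of 10 arrays), with a Cy-5 signal well above background on 7 of the 10 arrays, and with normexp its mean was −1.11. Tap2 ran from −1.85 through −1.55 to −1.09, lowest on C10-423 and highest on C10-415. Its mean was 2.78-fold below the reference (−1.47 ± 0.09, adjusted p = 9.41e-09, 10 of 10 arrays).

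**Figure D2:**
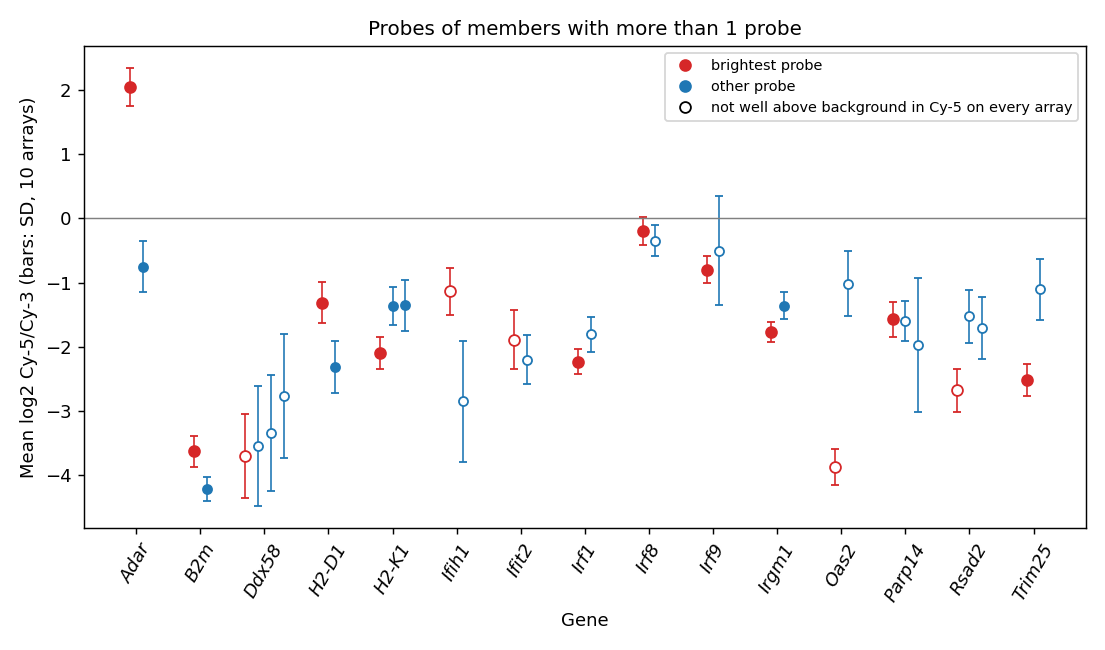
Mean log2 ratio of hemibrain to reference signal (vertical axis) for every probe of the members (horizontal axis) that have more than 1 probe, with bars for the SD over 10 arrays; red is the brightest probe that stands for the gene, blue another probe, and an open symbol a probe that missed the background limit in Cy-5 on at least 1 array. The Adar probes lie on opposite sides of 0 (2.04 and −0.75), while the other members drawn have all their probe means below 0.

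Other genes of the pathway, from lists of 86 genes of which 79 had a probe, gave 52 called lower, 9 called higher and 18 not called, with a median of −1.54. Receptors and proximal signalling genes were called lower in 5 of 10, the other 5 were not called, and the median was −0.98. Ifnar1, a chain of the type I interferon receptor, ran from −0.48 through 0.06 to 0.34 and was not called (mean 0.03, limma adjusted p = 0.754). Socs3, an inhibitor of cytokine receptors, ran from −2.40 through −2.12 to −1.33 with a mean of −2.04 (adjusted p = 1.8e-09, 10 of 10 arrays). Of 5 listed genes of the interferons themselves 4 had a probe, and limma called 0 of them. Of these 4, 3 had an unadjusted p under 0.05, and their adjusted p was also under 0.05 with a mean short of the 1.5-fold minimum. Signals were at background for most of them. Ifnb1 was well above background on 0 arrays in either dye, Ifng on 0 in Cy-5 and 1 in Cy-3, and Ifna4 on 2 in Cy-5 and 1 in Cy-3, so no ratio is given for these. Ifna2 was well above background on 9 arrays in Cy-5 and 10 in Cy-3 and had a mean of −0.44 (adjusted p = 0.00809).

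The sensing list holds genes that sense nucleic acids upstream of interferon and genes that pass the signal on. Of its 11 genes, 7 were called lower and 3 higher, with a median of −1.37, or −0.75 with normexp. Tlr3, a receptor for double-stranded RNA, had the highest mean, 1.18, but was well above background on 8 arrays in Cy-5 and on 7 in Cy-3. Among genes well above background in both dyes on all arrays, the highest and lowest were as follows. Tlr9, a receptor for DNA in endosomes, ran from 0.45 through 0.74 to 1.02 (adjusted p = 4.75e-07, 10 of 10 arrays). Sting1, the adaptor that signals from the DNA sensor cGAS, ran from −3.27 through −3.05 to −2.69 with a mean of −2.998 (adjusted p = 9.58e-13, 10 of 10 arrays). The sensing list thus held genes on both sides of 0.

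Further induced genes numbered 33, of which 30 had a probe. Of these 24 were called lower, 3 higher and 3 were not called, with a median of −2.04, or −0.93 with normexp and −1.34 with a floor. Cmpk2, a mitochondrial nucleotide kinase, ran from 1.96 through 2.12 to 2.39. It was called higher at 4.49-fold (mean 2.17, limma adjusted p = 8.55e-12, 10 of 10 arrays), unlike Rsad2. At the other end Ifi204, a DNA-binding protein of myeloid cells, ran from −6.32 through −5.98 to −5.58 and was 60.3-fold below the reference (mean −5.91, adjusted p = 4.06e-14, 10 of 10 arrays).

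In MHC class I assembly and the immunoproteasome, 13 of 18 genes were called lower and 1 higher, with a median of −1.71. Psmb8, a catalytic subunit of the immunoproteasome, ran from −3.25 through −3.09 to −2.77 with a mean of −3.06 (limma adjusted p = 4.42e-13, 10 of 10 arrays). Canx, the chaperone calnexin that folds many proteins beside class I, had a value on 6 of the 10 arrays, as outlier spots were left out. They ran from 0.40 through 0.59 to 0.70, and the mean of 0.57 (n = 6, limma adjusted p = 0.000336, above 0 on 6 of 6 arrays) was short of the 1.5-fold minimum. H2-Q1 was not well above background in the reference on any array, and its signal in the hemibrain was at least 13.2-fold higher (adjusted p = 3.08e-10). It was the 1 gene called higher in the list. Among MHC class II genes, which present peptides to helper T cells, 3 of 6 were called lower and 2 higher, with a median of −0.28. The median was −0.87 with only the probes well above background in at least 1 dye on all arrays. H2-Aa had the highest mean, 1.68, with arrays from −0.67 to 3.54, and was well above background on 9 arrays in Cy-5 and on 4 in Cy-3. Cd74, the invariant chain, ran from −2.86 through −2.19 to −1.57 (adjusted p = 4.02e-09, 10 of 10 arrays), whereas H2-Ab1 ran from 0.45 through 1.08 to 2.19 (adjusted p = 3.49e-05, 10 of 10 arrays) and was highest on C10-417.

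**Figure D3:**
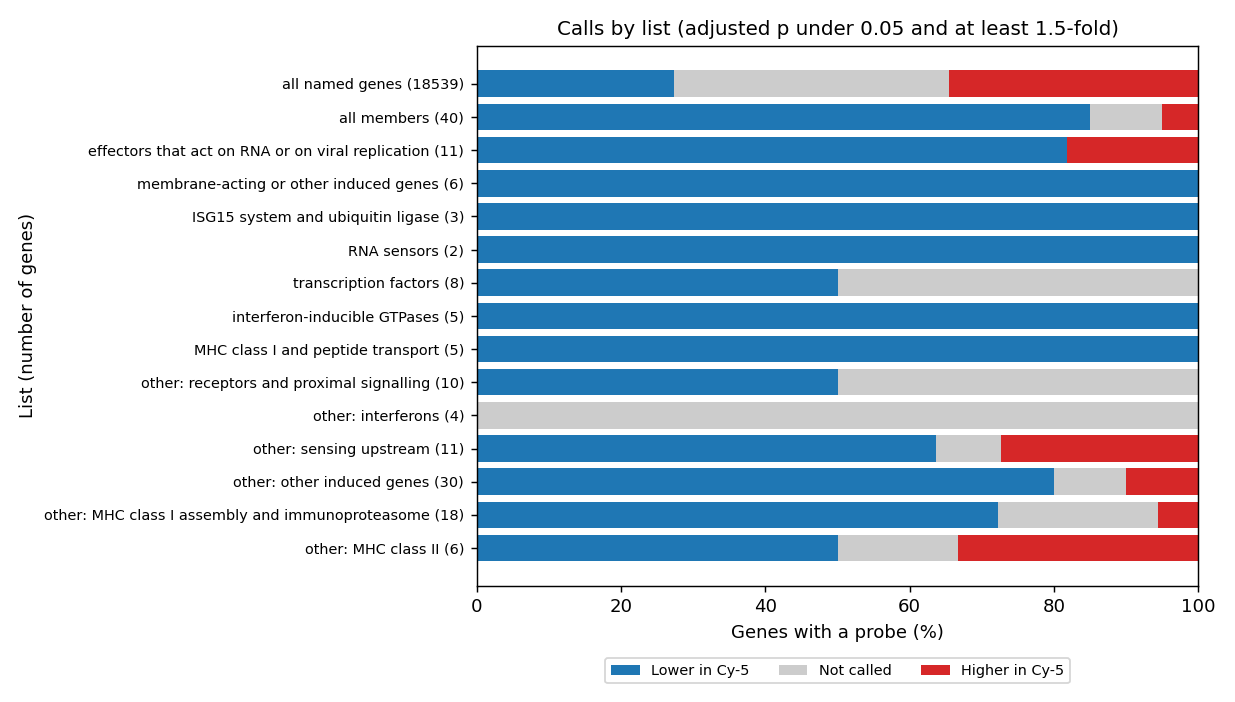
Share of genes (per cent, horizontal axis) called higher, called lower or not called in the hemibrain against the reference, for each role of the members, each list of other pathway genes and all 18539 named genes. Members were called lower in 34 of 40, beside 27.4% of all named genes.

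Members also varied from array to array. Their median range over arrays was 0.88, beside 0.96 over all named genes, and in the subset well above background in both dyes it was 0.78 for members and 0.78 for all genes. The median SD over arrays was 0.29 for members and 0.30 for all genes. The members as a group thus spread over arrays much as other genes did. Whether they were high on the same arrays was read from the deviation of each array from the median of that gene.

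C10-417 was the array on which the members were highest together, a place that it lost with normexp and with a floor on signals. The median deviation over members on it was 0.24, and 36 of 40 members were above their own median there. It was the highest array for 12 of the 40 (30.0%), where it was the highest for 5.87% of all named genes, and the lowest for 0 members. Over all named genes the median deviation on C10-417 was 0.01, and over genes called lower it was also 0.01. With normexp the median deviation over members on C10-417 was 0.04, ranking 5 of the 10 arrays, and C10-413 was highest at 1.15, with 33 of 40 members highest there. With a floor it was 0.21 on C10-417, ranking 2 behind C10-434. C10-437 was the array on which members were lowest, with a median deviation of −0.19 and 31 of 40 members below their median. It was the lowest array for 10 members (25.0%), beside 14.4% of named genes, while the median over all named genes was −0.05. The low place of C10-437 was lost with a floor on signals, which put its median deviation at 8.54e-05 with 20 of 40 members above their median, and C10-413 lowest at −0.17. With normexp it was −0.14, and C10-435 was lowest at −0.24. The other 8 arrays had median deviations from −0.14 on C10-413, which thus reversed with normexp, to 0.04 on C10-415.

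**Figure D4:**
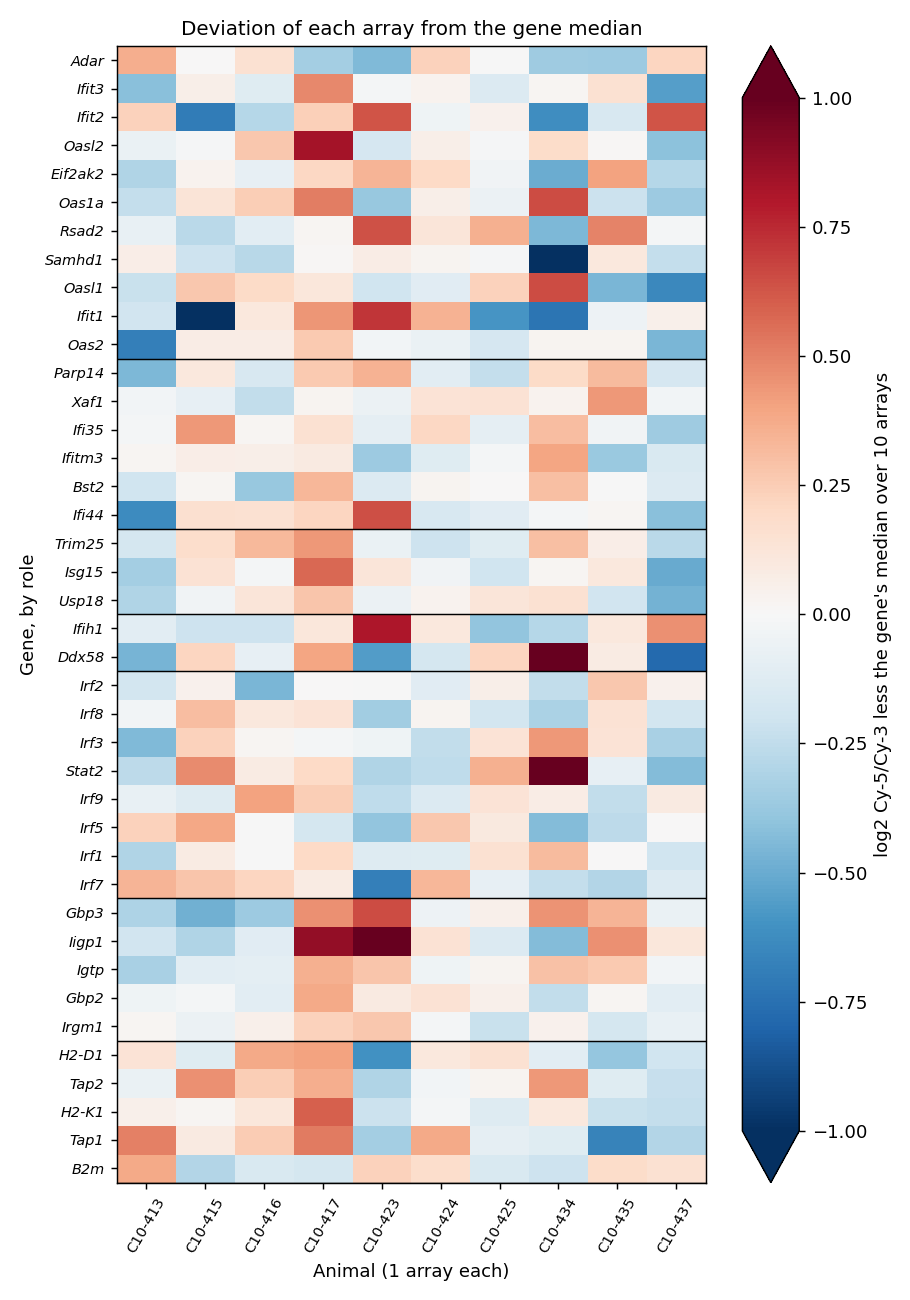
Deviation of each array (columns) from the gene's median log2 ratio over the 10 arrays (colour, log2 units) for each member (rows, grouped by role). The column of C10-417 holds 36 of 40 members above their median (27 of 40 with normexp) and that of C10-437 holds 31 of 40 below.

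By role, C10-417 was high for the ISG15 system (median deviation 0.43, 3 of 3 genes above their median), for MHC class I genes (0.40, 4 of 5, with B2m the exception), for the GTPases (0.38, 5 of 5) and for the effectors (0.24, 10 of 11). Transcription factors deviated least there among the roles (0.11, 6 of 8). C10-437 was low for the ISG15 system (−0.48, 3 of 3 with their lowest value there), for the effectors (−0.28) and for MHC class I genes (−0.23), and nearer to 0 for the GTPases (−0.07). C10-423 differed by role. On it all 5 GTPases were above their median (0.28), while 4 of 5 MHC class I genes (−0.30) and all 8 transcription factors (−0.28) were not.

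The other pathway genes, as a whole, deviated the same way on both arrays. On C10-417 their median deviation was 0.18, with 60 of 79 above their median, and it was their highest array for 20 of 76 (26.3%). On C10-437 it was −0.11, with 61 of 79 below. With normexp the median on C10-417 was 0.09, ranking 3 and highest for 4 genes, and with a floor it was 0.12, ranking 2, while C10-437 was at −0.03. The lists differed among themselves on C10-417. MHC class II genes were above their median in 6 of 6 (0.50), MHC class I assembly genes in 15 of 18 (0.25), further induced genes in 22 of 30 (0.19) and receptors in 8 of 10 (0.16), whereas sensing genes were above in 6 of 11 (0.04). On C10-413, where the members were at −0.14, the other pathway genes were at −0.01, and with normexp these were 1.15 and 0.62. Levels of each dye alone, here and below, were taken after loess and a scaling of brightness between arrays. Both steps use both dyes, so these levels are not separate measurements. Taken from each dye alone, the deviation of the members on C10-417 was 0.27 in Cy-5 and 0.00 in Cy-3. On C10-437 it was −0.18 in Cy-5 and under 0.01 in size in Cy-3. On both arrays the deviation was larger in the hemibrain dye than in the reference dye.

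Ratios of several marker lists also deviated on these arrays, though not always in the dye in which the members did. All 5 choroid plexus markers were above their median on C10-417 (median deviation 0.53) and all 5 were below it on C10-437 (−0.50). Their summed processed Cy-5 signal was 21076 on C10-417 and 17986 on C10-437, in a range over arrays from 5397 to 27344. This sum and those of the lists below were not scaled between arrays, so their ranges also hold the brightness of each array. Over all named genes the sum was 1.80e+08 on C10-417 and 1.79e+08 on C10-437. It ran from 1.01e+08 on C10-434 to 2.21e+08 on C10-423. Oligodendrocyte markers were above in 5 of 5 on C10-417 (0.28) and below in 5 of 5 on C10-437 (−0.24), with sums of 423704 and 384917 in a range from 251560 to 570516. Endothelial markers were above in 4 of 6 on C10-417 (0.37) and below in 4 of 6 on C10-437 (−0.19), with sums of 43335 and 45348 in a range from 20136 to 53097. From each dye alone, the choroid plexus list on C10-417 deviated by 0.40 in Cy-5 and −0.08 in Cy-3. The oligodendrocyte list deviated by −0.07 in Cy-5 and −0.22 in Cy-3 there, and the endothelial list by 0.05 and −0.20, so these 2 ratios were high with a low Cy-3 level. On C10-437 the choroid plexus list deviated by −0.23 in Cy-5, the oligodendrocyte list by −0.32 and the endothelial list by 0.08, the last with 0.41 in Cy-3.

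The remaining brain lists moved less evenly. Neuron markers were above in 6 of 8 on C10-417 (0.20) and below in 6 of 8 on C10-437 (−0.24), with summed Cy-5 signals of 305808 and 296626 in a range from 173238 to 410951. In Cy-5 alone the neuron list deviated by −0.14 on C10-417 and 0.10 on C10-437, against the sign of its ratio, with −0.23 and 0.20 in Cy-3. Astrocyte markers were above in 4 of 6 on C10-417 (0.13) and below in 4 of 6 on C10-437 (−0.25), with sums of 223862 and 262731, and the Cy-5 level alone was at 0.09 and 0.12. Microglia markers were above in 6 of 9 on C10-417 (0.08) and below in 6 of 9 on C10-437 (−0.08), with sums of 78048 and 75018 in a range from 36721 to 93256, and in Cy-5 alone they deviated by 0.07 and −0.10. Fibroblast markers were above in 5 of 5 on C10-417 (0.22, with 0.21 in Cy-5 alone and −0.03 in Cy-3 alone), with a sum of 38780, and below in 3 of 5 on C10-437 (−0.13), with a sum of 32690. Both red blood cell markers were above on C10-417 (0.24) and below on C10-437 (−0.47), with sums of 51744 and 41926 in a range from 15313 to 136215, and in Cy-5 alone they deviated by 0.20 and −0.41. T cell markers (0.02) and markers of monocytes, macrophages and neutrophils (−0.07) stayed near 0 on C10-417. On C10-437 the latter list was below in 4 of 6 (−0.26, with −0.17 in Cy-5 alone), and T cell markers were at 0.02. B cell markers were above in 2 of 4 on C10-417 (−0.001). On C10-437 they were below in 3 of 4 (−0.18, with −0.16 in Cy-5 alone). Markers of dividing cells were above in 5 of 6 on C10-417 (0.05, with 0.09 in Cy-5 alone). They were below in 4 of 6 on C10-437 (−0.14, with −0.18 in Cy-5 alone). On C10-423 the monocyte, macrophage and neutrophil list was above in 5 of 6 (0.60). The part of these cell types in the deviations of the members was not tested.

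**Figure D5:**
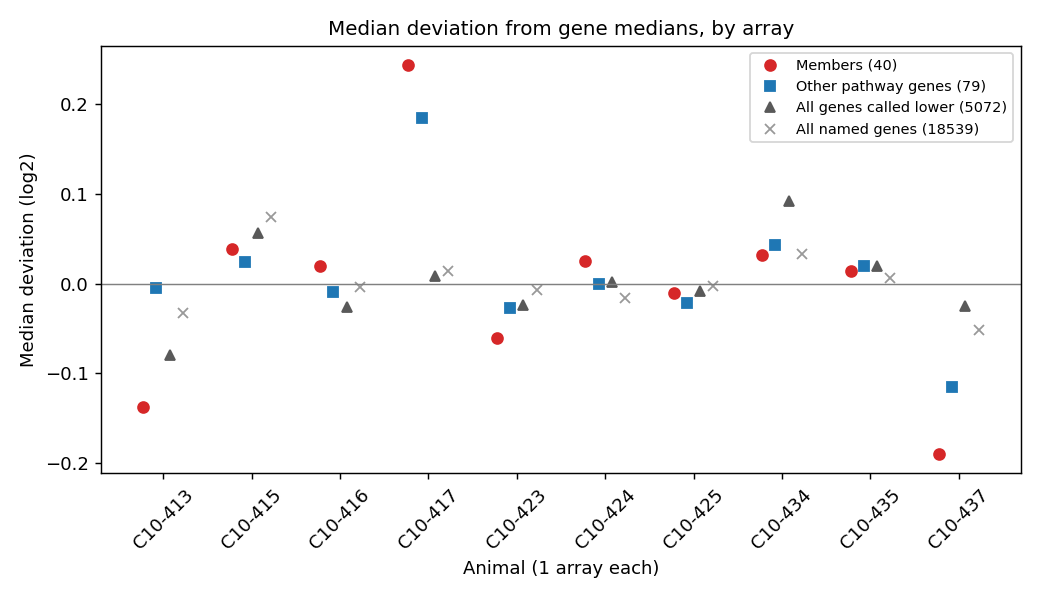
Median deviation of each array (horizontal axis, 10 arrays) from the gene's median log2 ratio (vertical axis, log2 units), for the members, other pathway genes, all genes called lower and all named genes. Members reach 0.24 on C10-417 and −0.19 on C10-437, where all named genes stand at 0.01 and −0.05; with normexp the members were at 0.04 and −0.14.

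The arrays lay on 4 slides, of which 2 held 4 arrays and 2 held 1, and all were scanned on 1 day. Between the slides with 4 arrays, limma called 0 of 40 members, and 1 had an unadjusted p under 0.05, beside 0.0706% of named genes and 0.0707% of all probes called, and 7.92% of named genes with an unadjusted p under 0.05. That 1 member was Ifi44, at a mean of −5.77 on slide 1 and −6.13 on slide 2 (difference −0.36, adjusted p = 0.494, 8 arrays, limma). The median difference over members was −0.08, beside 0.00 over all named genes, with 13 of the 40 higher on slide 2. C10-417 was on slide 1 with C10-415, C10-416 and C10-423, and C10-437 was the only array on its slide, so its animal and slide cannot be told apart.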

How the data were processed

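The authors scanned each array and extracted spots with Feature Extraction, version 10.10.1.1 per the file headers, which differs from the version in the study's methods. The deposited files hold background-subtracted and processed intensity signals for each dye and a deposited log10 ratio of the dyes, and the deposited series table holds log2 ratios, Cy-5 over Cy-3. From the deposited processed intensity signals, log2 ratios were computed, spots marked as outliers were left out and each array was adjusted by loess (span 0.3). Spots of a probe were averaged. The mean over the 10 arrays was tested against 0 in limma 3.58.1 (R 4.3.3, data.table, version 1.17.8) with Benjamini-Hochberg adjustment over 41174 probes, after a test on simulated data. RefSeq accessions named 27198 probes (66.1%), and the brightest probe stood for a gene. Lists and figures used Python 3.11.15, numpy 2.4.6, pandas 2.3.3 and matplotlib 3.10.9.

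Values on the arrays are given for the 5 highest and the 5 lowest members and the 5 with the widest range among those well above background in both dyes on all arrays, for every class I and peptide transport member, and for the highest and lowest gene of each other list among genes that bright. Values of Trim25, Ifih1, Irf7, Ifi44, Ddx58 and Iigp1, and of Ifit3b, Ifna2, Tlr3, H2-Q1 and H2-Aa were added after the values were seen. Alternatives were the deposited log ratio, median centring, normexp, a floor on signals, the deposited table and other fold minimums. Another kept only probes well above background in at least 1 dye on all arrays. The rest were the mean of all probes of a gene, slide as a block, single slides and arrays left out. The normexp alternative used median signals, as the files lack mean signals. The members and lists were chosen with earlier results of these data known, and 1 gene planned for the signalling list was left out.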

Additional observations from a re-analysis of the deposited data

Results flagged for a closer look

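Among 48 measures, each over the 10 arrays, 4 had 1 array far from the other 9, where chance gives about 1 in 20, or 2.4 of 48. The gap to the nearest array was above 0.466 of the whole range in each. Samhd1 was −4.07 on C10-434, where the other arrays ran from −3.14 to −2.76, and its probe was not well above background in Cy-5 on that array. Ddx58 was −2.19 on C10-434, where the others ran from −4.51 to −3.34. H2-K1 was −1.51 on C10-417, where the others ran from −2.34 to −1.99. The median deviation over all members was 0.24 on C10-417, where the others ran from −0.19 to 0.04. C10-417 and C10-434 each held 2 of the 4. Their causes were not tested.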

How the results depend on the processing

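The count of members called lower ran from 31 to 37 over 23 alternatives and was 34 whichever array was left out. The count called higher was 2, or 1 with a 2-fold minimum. Of the single members, 830 values kept their direction and side of the threshold. Irf2 turned to −0.17 with the deposited log ratio, −0.16 with median centring and −0.17 with the deposited table. The deposited log ratio moved the median of all named genes by −0.13 from 0.13, and log2 ratios should be read against that shift.

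The median over all members was −1.39 with normexp, −1.75 with a floor, −1.98 with the mean of all probes of a gene and −1.76 with bright members only, and from −2.21 to −2.14 with an array left out. The effectors had a median of −2.90 with the deposited log ratio, −2.89 with median centring, −2.90 with the deposited table, −1.63 with normexp, −2.07 with a floor and −2.37 with the mean of all probes. Membrane-acting and other genes had −2.39 with normexp and −2.72 with a floor, the ISG15 system −2.17 with normexp, and the RNA sensors −1.15 with normexp and −1.70 with a floor. Transcription factors had −0.84 with the deposited log ratio, −0.83 with median centring and −0.84 with the deposited table. MHC class I genes had −1.18 with normexp, −1.68 with a floor and −1.81 with the mean of all probes.

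Of the other lists, MHC class II had −0.87 with only the probes well above background in at least 1 dye on all arrays. Sensing genes had −1.59 with the deposited log ratio, −1.59 with median centring, −1.59 with the deposited table, −0.75 with normexp and −1.09 with a floor. Further induced genes had −2.25 with each of the deposited log ratio, median centring and deposited table, −0.93 with normexp and −1.34 with a floor.

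The median deviation of C10-413 turned from −0.14 to 1.15 with normexp and to 0.0297 in Cy-3 alone, and that of C10-437 from −0.19 to 8.54e-05 with a floor. With normexp it was 0.29 on C10-415, 0.0431 on C10-417, −0.19 on C10-423, −0.14 on C10-424, 0.25 on C10-434 and −0.24 on C10-435. With a floor it was 0.34 on C10-434 and −0.13 on C10-435. C10-434 had −0.10 with median centring and 0.17 with bright members only. In Cy-3 alone it was 0.0297 on C10-413, 0.00302 on C10-417 and −0.00043 on C10-437. In Cy-5 alone it was −0.10 on C10-413. A higher Cy-3 level lowers the ratio, so neither dye alone went against the −0.14 of that array. The cause was not tested for any of these.

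Leaving out arrays other than C10-434, single slides, each dye alone and bright members only were chosen after seeing the data. No paired analysis was possible because all arrays form 1 group. Signal over background limits the ratios of 12 members near background in Cy-5 on at least 1 array. Of these, 11 moved by over 1.5-fold with normexp, as did 7 of the 28 others. The offset in normexp moves weak signals most by construction, so these counts do not measure that limit. For a single probe, a dye preference and a difference in RNA cannot be told apart, and diet was not compared.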
